A study of Homo sapiens with 9 samples.

Results

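The 10 genes described here form the core of MHC class II antigen presentation: HLA-DRA, HLA-DRB1, HLA-DPA1, HLA-DPB1, HLA-DQA1, HLA-DQB1, HLA-DMA, HLA-DMB, CD74 and CIITA. They were chosen by symbol from GENCODE 44, with earlier results of these data known. The rows of all transcripts of a gene were summed, and the set is 10 of the 62700 genes in the deposited tables. All 10 passed the filter on low counts and are among the 14436 genes tested.

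The RNA-seq libraries came from HAL-01, a human leukemia line of precursor B cell type with the t(17;19) rearrangement, which joins TCF3 to HLF into the fusion gene TCF3::HLF. All cells, controls included, stably expressed Cas9GFP. The control cells received the scrambled guide SCR1 (genotype Cas9GFP, Ctr_SCR), and the others received sgRNA_96 or sgRNA_97 (genotype Cas9GFP, MEF2C Enhancer KO), which are directed at the enhancer of MEF2C that TCF3::HLF occupies. The labels do not say whether the cells were sorted or cloned. RNA was taken on day 13, and each group holds 3 libraries, numbered 1, 3 and 4, so that 6 KO libraries face 3 SCR1 libraries. Nothing in the labels says whether the libraries of a group came from separate cultures, so the p-values measure the spread between these libraries, which may be technical.

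MHC class II molecules are pairs of an alpha and a beta chain that carry peptides from the endosomal pathway to the surface of B cells, dendritic cells and macrophages, where CD4+ T cells read them. The chains are assembled in the endoplasmic reticulum with the invariant chain CD74, which is later cut away by endosomal proteases, and HLA-DM then helps exchange its remnant for other peptides while HLA-DO restrains HLA-DM in B cells. Transcription of the classical class II chains, CD74 and HLA-DM is coordinated by CIITA. This coactivator does not bind DNA but is recruited by RFX, CREB and NFY proteins on conserved promoter elements named the X and Y boxes.

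The promoter stretches below are shown so that the letters of the X and Y boxes, through which CIITA is known to be recruited, can be compared between the genes. They come from the RefSeq promoter table of build GRCh38.p14, which holds windows of 250 bases before to 50 bases after each start. Of the 10 genes, 8 were matched, with 9 windows since HLA-DPA1 has a pair of them. HLA-DRA and CIITA had no entry. Each line reads 5′ to 3′ on the strand of its gene. The capitals mark AGNNACNGA, a spelling of the X box core that was chosen after these promoters had been read, and ATTGG, the Y box core, or its reverse complement CCAAT. These are the letters of the reference genome, and the alleles of HAL-01 were not analysed here.
HLA-DRB1, chr6:32589870-32589947, minus strand: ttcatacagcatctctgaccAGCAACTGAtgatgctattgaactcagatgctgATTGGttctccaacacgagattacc
HLA-DQA1, chr6:32637284-32637362, plus strand: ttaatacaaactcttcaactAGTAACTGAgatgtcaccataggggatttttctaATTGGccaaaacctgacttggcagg
HLA-DQB1, chr6:32666717-32666798, minus strand: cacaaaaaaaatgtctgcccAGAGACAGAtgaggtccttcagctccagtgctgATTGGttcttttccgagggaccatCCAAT
HLA-DMA, chr6:32953152-32953230, minus strand: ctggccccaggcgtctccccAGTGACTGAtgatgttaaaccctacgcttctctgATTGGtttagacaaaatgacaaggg
HLA-DMB, chr6:32941046-32941136, minus strand: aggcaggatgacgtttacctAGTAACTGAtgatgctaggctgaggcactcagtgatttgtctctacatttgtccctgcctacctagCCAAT
HLA-DPA1, chr6:33073679-33073768, minus strand: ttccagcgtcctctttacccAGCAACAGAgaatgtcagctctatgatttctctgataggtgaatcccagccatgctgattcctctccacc
HLA-DPB1, chr6:33075831-33075919, plus strand: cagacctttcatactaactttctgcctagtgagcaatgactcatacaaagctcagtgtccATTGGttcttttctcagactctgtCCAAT
In the windows of HLA-DRB1, HLA-DQA1, HLA-DQB1 and HLA-DMA the X letters were followed by ATTGG on the strand of the gene after 24 or 25 bases. A search on that strand for this order with a gap of 15 to 35 bases found 4 of the 9 windows of the class II genes and 0.171% of the 35116 promoters in the table. Of 4 windows of class II genes outside the 10, those of HLA-DRB5 and HLA-DOA held the same order, and those of HLA-DQA2 and HLA-DOB held ATTGG without the X letters on that strand. HLA-DMB and the HLA-DPA1 window shown held the X letters without ATTGG behind them on that strand, and HLA-DPB1 and CD74 held Y letters without the X letters. Searched on both strands, AGNNACNGA was in 6 of the 9 windows and in 15.3% of all promoters, and ATTGG was in 7 of the 9 and in 34.6%. TTACNTAA, the palindromic letters that HLF-type bZIP proteins are known to prefer, were in 0 of the 9 windows and in 2.18% of all promoters when both strands were searched. At so low a share, 0 of 9 windows cannot show a lack of these letters, and sites outside the windows were not searched. A match is a description of letters in a window and not a binding site. Because the X letters were chosen after these promoters had been read, the shares that involve them are descriptive and test nothing.

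The libraries held between 15212462 and 29777361 estimated counts, with 5.97 to 7.01% of them from mitochondrial genes. Levels are given as CPM, the count of a gene per 1000000 counts of the library after TMM scaling, and a gene is called where edgeR's quasi-likelihood test gave an adjusted p under 0.05 over all genes tested. The targeted gene, MEF2C, which encodes a MADS box transcription factor, had 559.6, 559 and 536 CPM in the SCR1 libraries, 495, 498 and 510.1 with sgRNA_96 and 553, 505 and 495 with sgRNA_97. The library sgRNA_97 replicate 1 lay among the SCR1 values and the other 5 KO libraries lay below all SCR1 libraries. MEF2C was not called in the KO libraries (log2 fold change -0.12, SE 0.042, adjusted p = 0.062), and over 20 alternative settings its log2 fold change ran from -0.17 to -0.08, with a call in DESeq2 and in edgeR without that library.

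Precursor B cell genes were present in all groups. PAX5, EBF1, CD79A and the pre-B cell genes VPREB1, IGLL1 and DNTT were all measured, and the 10 markers of B lineage summed to between 4630 and 4824 CPM in SCR1 and between 4938 and 5193 CPM in KO. Of these 10, BLNK and DNTT rose and 8 were not called, where 10.1% of all genes tested rose and 10.6% fell. The 7 markers of mature B cells summed to 76.7 to 85.7 CPM in SCR1 and 84.8 to 100.0 CPM in KO, with MS4A1, which encodes CD20, at 29.95 ± 2.84 CPM in SCR1 and CR2 and FCRL1 at 0 in every library. Of the cells that could bring class II transcripts with them, monocytes and dendritic cells were checked by 10 markers. CD14 reached at most 0.596 CPM and LYZ 0.543 CPM in any library, and CD163, FCGR3A, CLEC9A and CLEC10A were at 0. The 10 monocyte and dendritic markers summed to 24.1 to 25.8 CPM in SCR1 and 24.9 to 29.8 CPM in KO, mostly from CSF1R and ITGAM. Of these 10 markers, 3 were tested and 2 were not called. ITGAM, an integrin of myeloid cells, was the 1 that rose (log2 fold change 0.74, SE 0.11, adjusted p = 0.000162). The 7 T and NK cell markers summed to 9.17 to 10.1 CPM in SCR1 and 7.48 to 8.85 CPM in KO, with NKG7 the main source and CD3D, CD3E and CD3G at 0. The part of ITGAM-expressing cells in the results below was not tested.

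All 10 class II genes were higher in the MEF2C-enhancer KO libraries than in SCR1. Each of the 10 was called higher by edgeR, where 10.1% of the genes tested were called higher and 10.6% lower. For each of the 10, every KO library lay above every SCR1 library, an arrangement found for 10.1% of the genes tested. Since the 10 genes were chosen with earlier results of these data known, these counts and shares describe them and are no independent test. The median log2 fold change over the 10 genes was 0.52, against 0.00 over all genes tested, and single genes ran from 0.29 for CD74 to 0.82 for HLA-DMB. In an exact two-sided permutation test of the 6 against the 3 libraries, run on each gene, all 10 genes gave an unadjusted p of 0.0119, the smallest that the 84 arrangements allow. That test reads the same separation of the libraries and adds no further support. The share of all genes at this p was not computed. In bulk RNA, a larger share of cells that express these genes and more transcript per cell cannot be told apart.

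**Figure D1:**
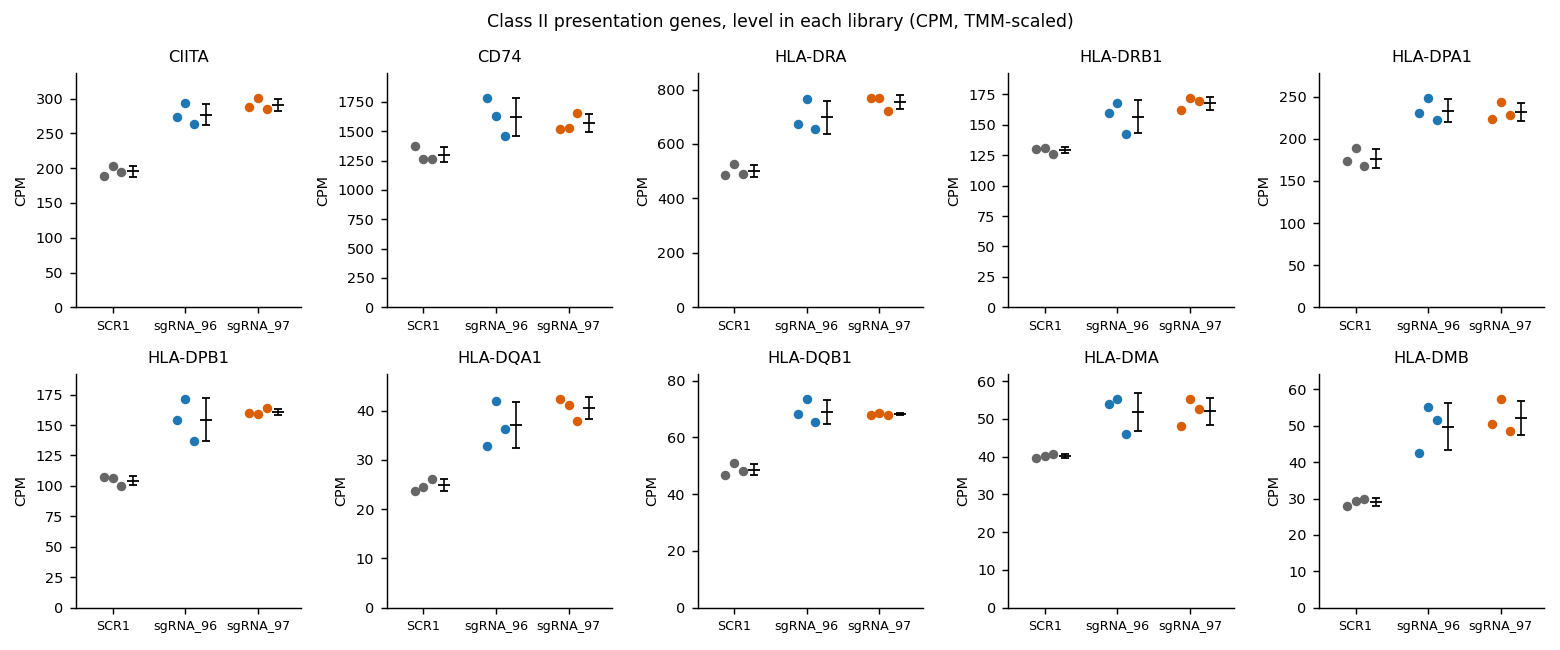
Level of the 10 class II presentation genes in each of the 9 libraries, in CPM on linear axes that start at 0, with 1 point per library and the mean ± SD of each group of 3 in black beside it. For every gene the 6 points of sgRNA_96 and sgRNA_97 lie above the 3 points of SCR1.

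CIITA (ENSG00000179583.21, chr16:10866222-10943021, plus strand), the regulator of the set, had 188, 203 and 195 CPM in the SCR1 libraries, 274, 293 and 264 with sgRNA_96 and 288, 301 and 285 with sgRNA_97. The 6 KO values lay between 264 and 301 CPM and the SCR1 values between 188 and 203 CPM, so the groups were well apart. The rise was 1.46-fold in the KO libraries (log2 fold change 0.54, SE 0.047, adjusted p = 1.82e-06), the smallest adjusted p of the 10 genes. For CIITA the log2 fold change against SCR1 was 0.51 with sgRNA_96 (adjusted p = 3.40e-05) and 0.58 with sgRNA_97 (adjusted p = 9.15e-06). The gene has 20 annotated transcripts, and CIITA is known to be read from alternative promoters. Transcripts that start within 50 bases of the most abundant transcript, between positions 10877198 and 10877226 of chromosome 16, held 95.9 to 97.6% of the counts of CIITA in SCR1 and 94.4 to 97.4% in KO. The ranges overlapped, and there were 8 such transcripts. The leading one, CIITA-201, which codes for 1130 residues, held 67.9% ± 0.79 of the counts in SCR1 and 71.3% ± 1.55 in KO. Its lowest KO share, 69.3%, lay above its highest SCR1 share, 68.3%.

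HLA-DRA (ENSG00000204287.14, chr6:32439878-32445046, plus strand), the alpha chain that pairs with all HLA-DR beta chains, had 487, 528 and 490.1 CPM in the SCR1 libraries, 672, 767 and 653 with sgRNA_96 and 768, 767 and 723 with sgRNA_97. The lowest KO library, at 653 CPM, lay above the highest SCR1 library, at 528 CPM, and the rise was 1.45-fold (log2 fold change 0.53, SE 0.056, adjusted p = 9.99e-06). HLA-DRA was higher by 0.48 on the log2 scale with sgRNA_96 (adjusted p = 0.000141) and by 0.59 with sgRNA_97 (adjusted p = 2.57e-05). Its beta chain partner HLA-DRB1 (ENSG00000196126.12, chr6:32577902-32589848, minus strand), the most polymorphic chain of the set, had 130.4, 131 and 126 CPM in the SCR1 libraries, 160.0, 168 and 142 with sgRNA_96 and 162, 172 and 169.5 with sgRNA_97. The groups did not overlap, with sgRNA_96 replicate 4 the KO library nearest to SCR1. The rise of 1.26-fold (log2 fold change 0.33, SE 0.055, adjusted p = 0.000588) was among the smaller ones of the set. Taken singly, sgRNA_96 gave a log2 fold change of 0.28 for HLA-DRB1 (adjusted p = 0.00785) and sgRNA_97 gave 0.38 (adjusted p = 0.000895). Without sgRNA_96 replicate 3 the sgRNA_96 comparison of HLA-DRB1 gave 0.23 with adjusted p = 0.0521 by edgeR, and the call was lost.

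HLA-DPA1 (ENSG00000231389.8, chr6:33064569-33080775, minus strand), the alpha chain of HLA-DP, had 173, 189 and 167 CPM in the SCR1 libraries, 230.3, 248 and 222 with sgRNA_96 and 224, 244 and 229 with sgRNA_97. The lowest KO library, at 222 CPM, lay above the highest SCR1 library, at 189 CPM (log2 fold change 0.40, SE 0.051, adjusted p = 5.55e-05). HLA-DPB1 (ENSG00000223865.11, chr6:33075990-33089696, plus strand), its beta chain, had 107, 106 and 99.8 CPM in the SCR1 libraries, 154, 172 and 137 with sgRNA_96 and 159.6, 159 and 164 with sgRNA_97. It rose 1.51-fold (log2 fold change 0.59, SE 0.061, adjusted p = 7.51e-06), and no KO library overlapped with SCR1. For HLA-DPA1 the log2 fold change against SCR1 was 0.40 with sgRNA_96 (adjusted p = 0.000593) and 0.40 with sgRNA_97 (adjusted p = 0.000637). HLA-DPB1 was higher by 0.56 on the log2 scale with sgRNA_96 (adjusted p = 0.000131) and by 0.62 with sgRNA_97 (adjusted p = 5.09e-05). The genes overlap at their starts on opposite strands, and whether the counting used strand is not given in the sources used here, so reads in the overlap may have been split between them.

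HLA-DQA1 (ENSG00000196735.13, chr6:32628179-32647062, plus strand), the alpha chain of HLA-DQ, had 23.7, 24.6 and 26.1 CPM in the SCR1 libraries, 32.7, 41.9 and 36.3 with sgRNA_96 and 42.4, 41.1 and 37.95 with sgRNA_97. It was the least abundant classical chain and rose 1.56-fold (log2 fold change 0.65, SE 0.081, adjusted p = 5.34e-05). Taken singly, sgRNA_96 gave a log2 fold change of 0.58 for HLA-DQA1 (adjusted p = 0.000817) and sgRNA_97 gave 0.71 (adjusted p = 0.000152). HLA-DQB1 (ENSG00000179344.17, chr6:32659467-32668383, minus strand), its beta chain, had 46.9, 50.9 and 48.1 CPM in the SCR1 libraries, 68.1, 73.7 and 65.4 with sgRNA_96 and 67.97, 68.7 and 68.1 with sgRNA_97. The KO values began at 65.4 CPM and the SCR1 values ended at 50.9 CPM (log2 fold change 0.50, SE 0.052, adjusted p = 8.34e-06). For HLA-DQB1 the log2 fold change against SCR1 was 0.51 with sgRNA_96 (adjusted p = 0.000104) and 0.49 with sgRNA_97 (adjusted p = 0.000145). HLA-DRB1, HLA-DQA1, HLA-DQB1, HLA-DPA1 and HLA-DPB1 have close relatives or pseudogenes in the region, among which Salmon divides reads. With each summed with its relatives before the test, all 10 genes were again called higher in KO, where 1455 of 14432 genes tested were.

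HLA-DMB (ENSG00000242574.9, chr6:32934629-32941028, minus strand), the beta chain of the peptide editor HLA-DM, had 27.9, 29.2 and 29.97 CPM in the SCR1 libraries, 42.6, 55.1 and 51.6 with sgRNA_96 and 50.6, 57.5 and 48.6 with sgRNA_97. It rose 1.76-fold (log2 fold change 0.82, SE 0.08, adjusted p = 5.10e-06), and this was the largest fold change of the 10 genes in the main comparison. HLA-DMB was higher by 0.78 on the log2 scale with sgRNA_96 (adjusted p = 8.14e-05) and by 0.85 with sgRNA_97 (adjusted p = 3.82e-05). Its partner HLA-DMA (ENSG00000204257.15, chr6:32948613-32969094, minus strand) had 39.5, 40.2 and 40.8 CPM in the SCR1 libraries, 54.03, 55.4 and 45.95 with sgRNA_96 and 48.05, 55.2 and 52.7 with sgRNA_97. The lowest KO library, at 45.95 CPM, was above the highest SCR1 library, at 40.8 CPM (log2 fold change 0.37, SE 0.065, adjusted p = 0.000926). Taken singly, sgRNA_96 gave a log2 fold change of 0.37 for HLA-DMA (adjusted p = 0.00687) and sgRNA_97 gave 0.37 (adjusted p = 0.00534). HLA-DMA and HLA-DMB both overlap ENSG00000248993 on their own strand, HLA-DMA overlaps BRD2 on the other strand, and CIITA overlaps DEXI on the other strand, so some reads of these genes may be shared.

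CD74 (ENSG00000019582.17, chr5:150401637-150412969, minus strand), the invariant chain that escorts class II dimers to endosomes and also acts as a surface receptor, had 1376, 1265 and 1263 CPM in the SCR1 libraries, 1781, 1629 and 1458 with sgRNA_96 and 1515, 1531 and 1657 with sgRNA_97. It was the most abundant of the 10 and had the smallest rise, 1.23-fold (log2 fold change 0.29, SE 0.055, adjusted p = 0.00147). SCR1 replicate 1 was the highest control and sgRNA_96 replicate 4 the lowest KO library, and the groups did not overlap. For CD74 the log2 fold change against SCR1 was 0.32 with sgRNA_96 (adjusted p = 0.00525) and 0.27 with sgRNA_97 (adjusted p = 0.012). Without SCR1 replicate 4 the sgRNA_97 comparison of CD74 gave 0.25 with adjusted p = 0.0600. The isoform CD74-202, which codes for 232 residues, held 84.6 to 85.4% of the counts in SCR1 and 83.7 to 86.7% in KO. CD74-201, which codes for 296 residues and includes the alternative thyroglobulin-like segment, held 5.75 to 6.43% in SCR1 and 5.54 to 6.81% in KO. The ranges of both isoforms overlapped between the groups.

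Each guide was also set against SCR1 on its own, and both comparisons used the same 3 SCR1 libraries. With sgRNA_96 all 10 genes were called higher, where 5.78% of all genes tested were called higher, and the median log2 fold change was 0.49. With sgRNA_97 all 10 genes were called higher, where 7.35% of all genes tested were, and the median was 0.53. In limma on log2(TPM + 1) without a filter, 2 of the 10 genes were called with sgRNA_96, where 128 of 27291 were called higher. With sgRNA_97 that setting called 7 of the 10, where 172 of 27291 genes were called higher. HLA-DMA lost its call in 5 of 20 alternatives with each guide. The guides were then compared with each other directly. By edgeR 0 of the 10 genes were called, where 0.0208% of all genes tested were called in either direction, and 0 had an unadjusted p under 0.05. DESeq2 also called 0 of the 10. The largest difference was in HLA-DQA1, higher with sgRNA_97 by 0.13 on the log2 scale (95% interval -0.06 to 0.31), and the lowest was in CD74, at -0.05 (95% interval -0.19 to 0.09). For CIITA the interval ran from -0.04 to 0.18 and for HLA-DRA from -0.02 to 0.24. Differences between the guides of the size of the rise over SCR1 lay outside the intervals of both genes.

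**Figure D2:**
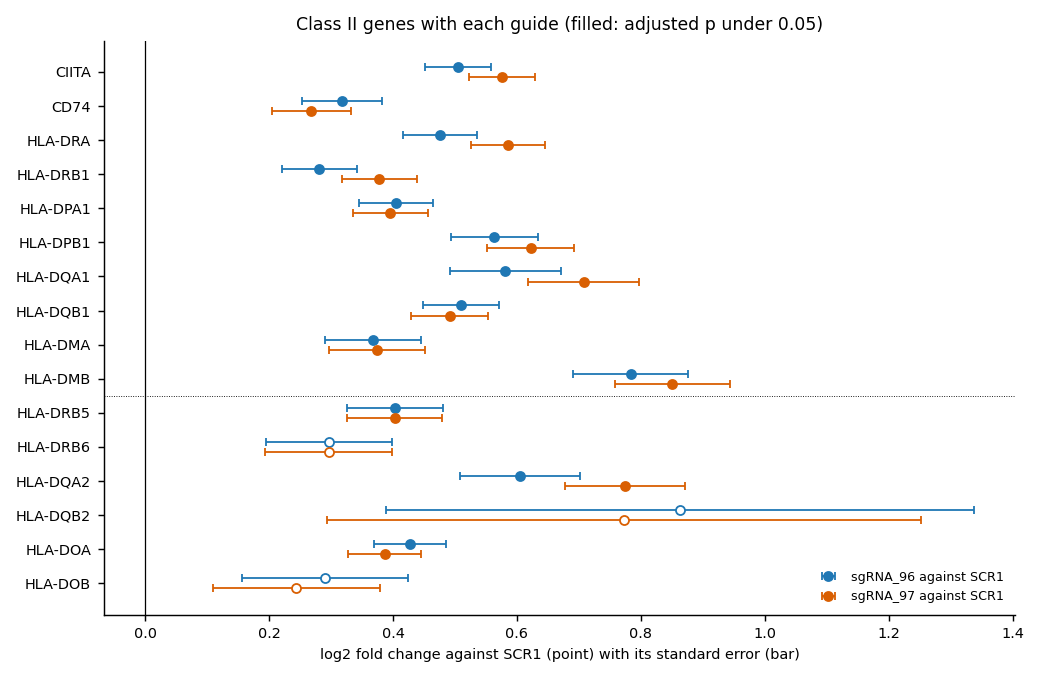
Log2 fold change against SCR1 with its standard error for the 10 class II presentation genes (above the dotted line) and the 6 other class II genes and pseudogenes that were tested (below it), blue for sgRNA_96 and orange for sgRNA_97, filled where the adjusted p was under 0.05. All points lie to the right of 0, and HLA-DRB6, HLA-DQB2 and HLA-DOB are open with both guides.

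The class II genes differed in which transcripts carried the reads. Retained-intron transcripts, which keep an intron and have no annotated coding sequence, took at most 1.79% of the counts of CD74 in any library. HLA-DRA has 2 annotated transcripts, both protein-coding, so its counts could fall in no other class. In the HLA-DM genes retained-intron transcripts took a large part. In HLA-DMA the retained-intron share was 35.3 to 39.3% in SCR1 and 41.3 to 50.8% in KO, without overlap, and the share of protein-coding transcripts was 60.7 to 64.5% in SCR1 and 49.2 to 58.7% in KO. In HLA-DMB the retained-intron share was 52.7 to 67.7% in SCR1 and 59.7 to 65.8% in KO, with overlap. In HLA-DQB1 it was 9.54 to 11.5% in SCR1 and 11.5 to 17.3% in KO. The mean retained-intron share was also higher in KO for HLA-DMB, HLA-DRB1, HLA-DPA1, HLA-DQB1 and CD74. It was lower in KO for HLA-DPB1, HLA-DQA1 and CIITA. How many of all genes separate KO from SCR1 in the share or level of a transcript class was not computed.

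The levels of the transcript classes were then taken apart for the HLA-DM genes. The protein-coding transcripts of HLA-DMA had 25.5, 24.4 and 25.1 CPM in SCR1, 31.7, 27.2 and 23.99 with sgRNA_96 and 25.7, 27.4 and 28.4 with sgRNA_97, and the groups overlapped. Its retained-intron transcripts had 13.97, 15.8 and 15.6 CPM in SCR1, 22.3, 28.2 and 21.96 with sgRNA_96 and 22.4, 27.9 and 24.2 with sgRNA_97, with all KO libraries above all SCR1 libraries. Of the rise in the mean of HLA-DMA, 9.35 CPM came from retained-intron and 2.40 CPM from protein-coding transcripts. For HLA-DMB the protein-coding transcripts had 13.2, 9.42 and 13.3 CPM in SCR1, 15.1, 22.1 and 17.7 with sgRNA_96 and 20.4, 20.8 and 17.3 with sgRNA_97, and its retained-intron transcripts had 14.7, 19.8 and 16.7 CPM in SCR1, 27.5, 32.9 and 33.98 with sgRNA_96 and 30.2, 36.6 and 31.3 with sgRNA_97. Both kinds were higher in every KO library than in every SCR1 library, by 6.95 and 15.04 CPM in the mean.

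A test on the protein-coding transcripts of every gene, added after these values had been seen, covered 11358 genes and called 9 of the 10 class II genes higher in KO, where 7.73% of genes were called higher. The exception was HLA-DMA (log2 fold change 0.16, SE 0.083, adjusted p = 0.207). HLA-DMB remained called (0.69, SE 0.14, adjusted p = 0.00784), as did CIITA (0.60, SE 0.051, adjusted p = 2.67e-05). The same 9 were called with sgRNA_96, where 4.13% of genes were called higher, and with sgRNA_97, where 5.24% were. The division of reads among the transcripts of a gene is an estimate by Salmon, and intron-retaining RNA and reads from unspliced RNA cannot be told apart in these tables.

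**Figure D3:**
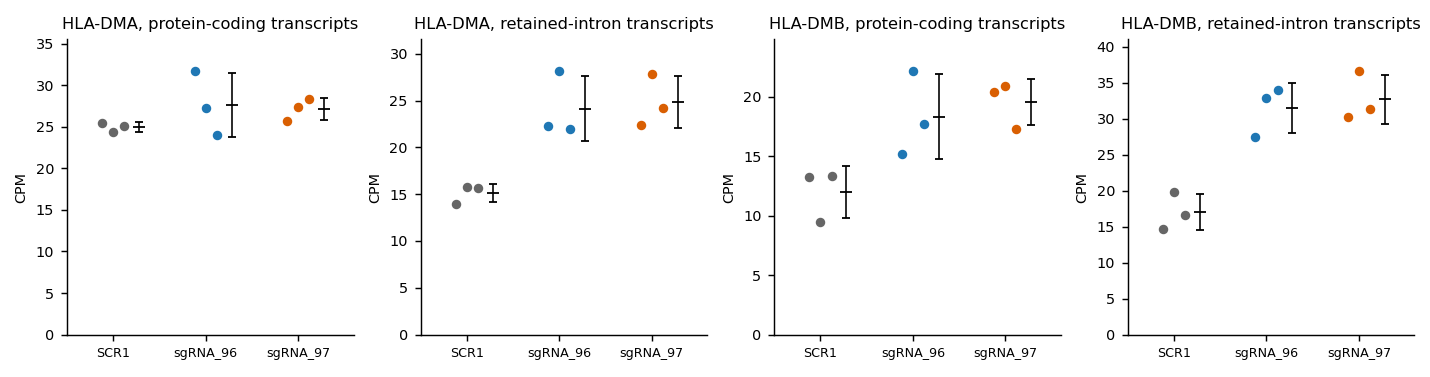
CPM in the protein-coding and the retained-intron transcripts of HLA-DMA and HLA-DMB in each of the 9 libraries, on linear axes that start at 0, with the mean ± SD of each group of 3 in black. The groups overlap only in the first panel, protein-coding HLA-DMA, where SCR1 lies between 24.4 and 25.5 CPM and KO between 23.99 and 31.7 CPM.

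Levels of different genes were compared as TPM, which divides by transcript length. The alleles of HAL-01 may differ from the reference transcripts, most in polymorphic chains such as HLA-DRB1. How far this shifts the order and the ratios between chains was not tested. In SCR1 the order was CD74 at 1503 ± 65.5 TPM, HLA-DRA at 606 ± 39.2, HLA-DRB1 at 156 ± 6.01, HLA-DPA1 at 152 ± 14.9, HLA-DPB1 at 149 ± 3.44, HLA-DMA at 49.7 ± 0.38, HLA-DQB1 at 46.6 ± 4.34, CIITA at 40.7 ± 1.56, HLA-DQA1 at 31.3 ± 1.86 and HLA-DMB at 21.7 ± 2.09 TPM (SD, n = 3). HLA-DRB1, HLA-DPA1 and HLA-DPB1 overlapped with their neighbours in this order, as did HLA-DMA, HLA-DQB1 and CIITA. The other neighbours did not overlap.

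The 10 genes summed to 2801, 2818 and 2652 TPM in the SCR1 libraries, to 3736, 3722 and 3396 TPM with sgRNA_96, and to 3562, 3625 and 3765 TPM with sgRNA_97. The KO mean was 1.32 times the SCR1 mean, and no KO library fell within the SCR1 range. CD74 made up 54.5% ± 1.59 of the sum in SCR1 and 50.9% ± 2.29 in KO, with overlapping ranges. HLA-DPB1 made up 5.29 to 5.52% in SCR1 and 5.77 to 6.54% in KO, without overlap.

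The TPM ratio of HLA-DRA to HLA-DRB1 was 3.74, 4.02 and 3.90 in SCR1, 4.22, 4.58 and 4.62 with sgRNA_96 and 4.76, 4.48 and 4.30 with sgRNA_97. The ratio was higher in every KO library, but with HLA-DRB5 added to HLA-DRB1 it ran from 1.89 to 2.20 in SCR1 and from 2.10 to 2.52 in KO, with overlap. The ratio of HLA-DPA1 to HLA-DPB1 was 0.944 to 1.097 in SCR1 and 0.800 to 0.984 in KO. HLA-DQA1 to HLA-DQB1 was 0.617 to 0.801 in SCR1 and 0.666 to 0.820 in KO, and HLA-DMA to HLA-DMB was 2.05 to 2.51 in SCR1 and 1.36 to 2.28 in KO. CD74 to the 6 classical chains together was 1.23 to 1.41 in SCR1 and 1.04 to 1.33 in KO. These 4 ratios overlapped between the groups.

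**Figure D4:**
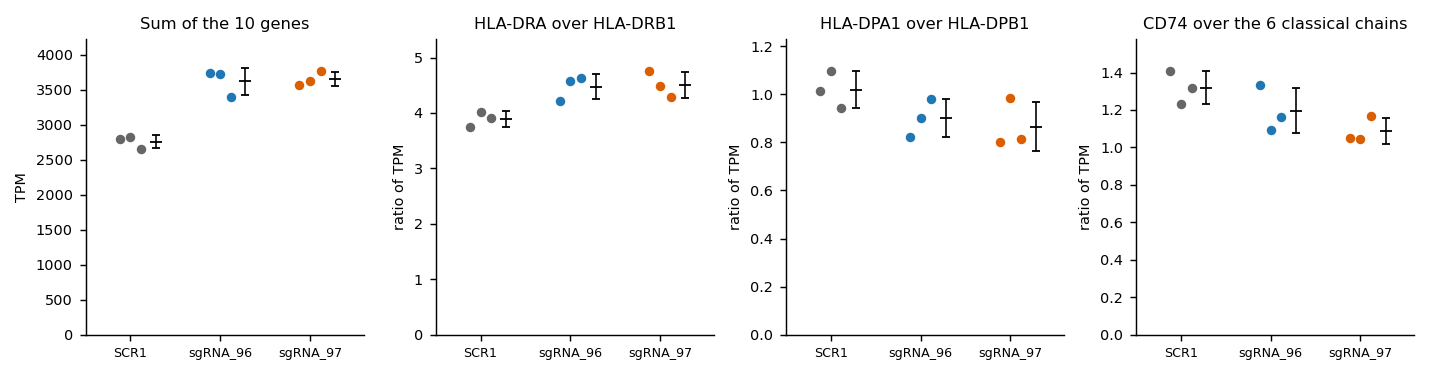
Summed TPM of the 10 genes, and the TPM ratios HLA-DRA to HLA-DRB1, HLA-DPA1 to HLA-DPB1 and CD74 to the 6 classical chains, in each of the 9 libraries on linear axes that start at 0, with the mean ± SD of each group of 3 in black. The sum and the HLA-DRA to HLA-DRB1 ratio separate KO from SCR1, and the other ratios overlap.

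Counts assigned to other class II genes rose too. Salmon divides reads among close relatives, and the alleles of HAL-01 were not analysed here. Reads of HLA-DRB1 or HLA-DQA1 may therefore be counted in HLA-DRB5, HLA-DRB6 or HLA-DQA2. Of 13 other gene entries of the region, 6 were tested, and 4 of these rose, 0 fell and 2 were not called. Over all genes tested 10.1% rose and 10.6% fell. The median log2 fold change of the 6 was 0.40. HLA-DQA2, a close relative of HLA-DQA1, had 13.9, 14.7 and 13.3 CPM in the SCR1 libraries, 21.8, 23.1 and 18.8 with sgRNA_96 and 22.2, 24.5 and 24.8 with sgRNA_97 (log2 fold change 0.69, SE 0.091, adjusted p = 7.63e-05). HLA-DRB5, a second HLA-DR beta chain, had 129.7, 109.8 and 109 CPM in the SCR1 libraries, 163, 161 and 138 with sgRNA_96 and 145, 158 and 158 with sgRNA_97 and rose (log2 fold change 0.40, SE 0.065, adjusted p = 0.000454). HLA-DOA, the alpha chain of the HLA-DM inhibitor HLA-DO, had 52.2, 57.3 and 55.1 CPM in the SCR1 libraries, 72.6, 76.1 and 72.2 with sgRNA_96 and 73.99, 69.5 and 71.4 with sgRNA_97, with all KO libraries above all SCR1 libraries (log2 fold change 0.41, SE 0.05, adjusted p = 4.22e-05). Its beta chain HLA-DOB was at 8.07 ± 0.576 CPM in SCR1 and 9.67 ± 1.02 CPM in KO and was not called (log2 fold change 0.27, SE 0.11, adjusted p = 0.107). The expressed entry of the pseudogene HLA-DRB6 rose (log2 fold change 0.30, SE 0.086, adjusted p = 0.0222). HLA-DQB2, at most 1.89 CPM in any library, was not called (log2 fold change 0.82, SE 0.41, adjusted p = 0.173). The remaining 7 entries, among them the pseudogenes HLA-DPA2, HLA-DPB2 and HLA-DRB9 and the antisense gene HLA-DQB1-AS1, were at or near 0. The balance of HLA-DM to HLA-DO, as the ratio of summed TPM, was 1.75 to 2.01 in SCR1 and 1.84 to 2.14 in KO.

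Of the 8 RFX, CREB, ATF1 and NFY genes listed, whose proteins bind class II promoters, 0 rose, 1 fell and 7 were not called. Their median log2 fold change was -0.08, and over all genes tested 10.1% rose and 10.6% fell. The subunit NFYB, which binds the Y box as part of NFY, fell from 68.1 ± 1.08 to 60.7 ± 3.67 CPM (log2 fold change -0.17, SE 0.054, adjusted p = 0.0408). NFYB was called with neither guide alone (adjusted p = 0.146 with sgRNA_96 and 0.0852 with sgRNA_97). Its sgRNA_96 replicate 3, at 67.2 CPM, lay within the SCR1 range. RFX5, the largest RFX subunit, gave 0.10 (adjusted p = 0.126), and RFXAP and RFXANK gave -0.11 (adjusted p = 0.309) and -0.07 (adjusted p = 0.523). Among 10 coactivators and histone enzymes that work with CIITA, 0 rose and 1 fell, the arginine methyltransferase CARM1 (log2 fold change -0.17, SE 0.056, adjusted p = 0.045). CARM1 too was called with neither guide alone (adjusted p = 0.143 with sgRNA_96 and 0.101 with sgRNA_97).

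Of 11 transcription factors known to act on the CIITA promoters, 10 were tested, and 1 rose, 3 fell and 6 were not called, where 10.1% of all genes tested rose and 10.6% fell, with a median log2 fold change of -0.04. IKZF3, which encodes the lymphoid factor Aiolos, rose from 6.19 ± 0.546 CPM in SCR1 to 11.4 ± 1.19 CPM in KO, with the lowest KO library at 9.78 CPM and the highest SCR1 library at 6.57 CPM (log2 fold change 0.89, SE 0.12, adjusted p = 9.07e-05). Its relative IKZF1, which encodes Ikaros, fell (log2 fold change -0.19, SE 0.045, adjusted p = 0.00903). IKZF1 was called with sgRNA_97 alone (adjusted p = 0.0131) but not with sgRNA_96 (adjusted p = 0.0742). IRF4, an interferon regulatory factor of the B cell and plasma cell stages, had 77.3, 77.5 and 76.6 CPM in the SCR1 libraries, 69.9, 56.8 and 67.8 with sgRNA_96 and 65.7, 59.6 and 61.9 with sgRNA_97 (log2 fold change -0.28, SE 0.061, adjusted p = 0.00419), and all its KO values lay below those of SCR1. TCF3, whose promoter also drives TCF3::HLF in these cells, fell (log2 fold change -0.24, SE 0.06, adjusted p = 0.00986), and reads of the fusion and of the normal allele cannot be told apart in gene counts. TCF3 was likewise called with sgRNA_97 alone (adjusted p = 0.0223) but not with sgRNA_96 (adjusted p = 0.0635). PAX5, SPI1, IRF8, IRF1 and PRDM1 were among those not called, with log2 fold changes of -0.02, -0.06, -0.06, 0.03 and 0.37.

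The list of proteases and the reductase of the loading compartment also held ASAH1, the acid ceramidase, which is no protease. Of 12 listed, 9 were tested, and 2 rose, 3 fell and 4 were not called, with a median of -0.09. Over all genes tested 10.1% rose and 10.6% fell. The 2 that rose were the protease CTSS and ASAH1 (log2 fold change 0.19, SE 0.058, adjusted p = 0.0252). CTSS, the cathepsin that cuts CD74 in B cells and dendritic cells, rose from 46.1 ± 0.985 to 58.5 ± 2.59 CPM (log2 fold change 0.35, SE 0.052, adjusted p = 0.000277). IFI30, the thiol reductase GILT that opens disulfide bonds of antigens, fell from 32.2 ± 2.15 to 25.96 ± 2.63 CPM (log2 fold change -0.32, SE 0.082, adjusted p = 0.0124). CTSC, which activates granule proteases, fell slightly (log2 fold change -0.19, SE 0.046, adjusted p = 0.00742), and CTSH fell at a low level, at most 3.02 CPM (log2 fold change -0.90, SE 0.28, adjusted p = 0.0308). ASAH1 and IFI30 were not called with sgRNA_96 alone (adjusted p = 0.131 and 0.0554), nor CTSH with sgRNA_97 alone (adjusted p = 0.164). CTSL, CTSV and CTSF were at 0 in every library. SPPL2A, the intramembrane protease that removes the last stub of CD74, gave 0.03 (adjusted p = 0.807).

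Of 13 genes of class II turnover and traffic, 12 were tested, and 3 rose, 0 fell and 9 were not called, with a median of -0.02. Over all genes tested 10.1% rose and 10.6% fell. Those that rose were the tetraspanins CD37 (from 15.3 ± 0.655 to 24.4 ± 2.24 CPM, log2 fold change 0.68, SE 0.085, adjusted p = 5.24e-05), CD82 (log2 fold change 0.37, SE 0.095, adjusted p = 0.0125) and CD9 (log2 fold change 0.14, SE 0.041, adjusted p = 0.0221). CD82 was not called with sgRNA_96 alone (adjusted p = 0.0589), nor CD9 with sgRNA_97 alone (adjusted p = 0.112). CD63, a tetraspanin of the same list, was not called, at -0.12 (adjusted p = 0.158). The ubiquitin ligase MARCHF1, which takes class II molecules off the surface, was at 0 in SCR1 and at most 0.0543 CPM in KO, and its relative MARCHF8 gave 0.07 (adjusted p = 0.533). Of 9 costimulatory ligands and CD74 partners, 7 were tested, 1 rose and 1 fell, with a median of 0.12. The T cell ligands CD86 and CD40 reached at most 1.13 and 0.917 CPM in any library, and CD80 did not pass the filter. MIF, a cytokine that binds CD74, fell (log2 fold change -0.42, SE 0.12, adjusted p = 0.0251), with SCR1 values from 186 to 284 CPM, and its coreceptor CXCR4 rose (log2 fold change 0.12, SE 0.041, adjusted p = 0.0488). MIF was not called with sgRNA_96 alone, and CXCR4 was called with neither guide alone.

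**Figure D5:**
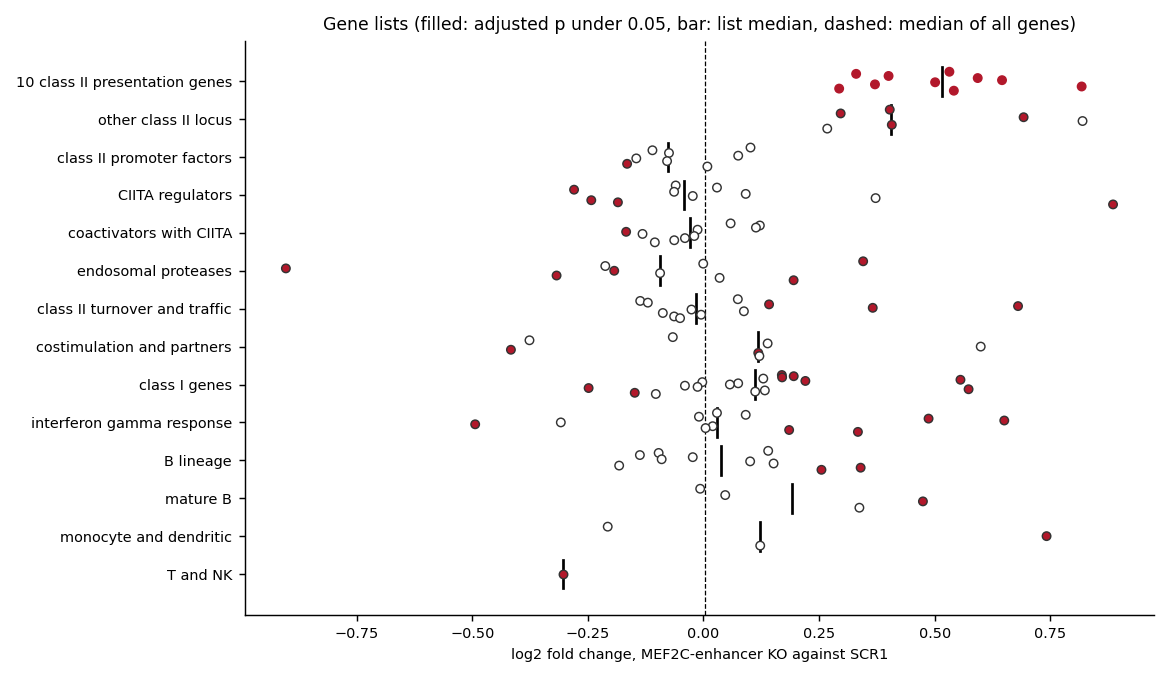
Log2 fold change of MEF2C-enhancer KO against SCR1 for the tested genes of each list, 1 point per gene, filled where the adjusted p was under 0.05, with the list median as a black bar and the median of all genes tested as a dashed line. The 10 class II presentation genes all lie between 0.29 and 0.82, the other class II genes lie above 0, and the factor, protease and traffic lists straddle 0.

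MHC class I genes, which serve the cytosolic pathway, moved in both directions. Of 17 listed and tested, 6 rose, 2 fell and 9 were not called, where 10.1% of all genes tested rose and 10.6% fell. Their median log2 fold change was 0.11. NLRC5, the class I counterpart of CIITA, rose by a log2 fold change of 0.57 (SE 0.054, adjusted p = 3.53e-06) and HLA-F by 0.56 (SE 0.067, adjusted p = 3.90e-05), while B2M rose by 0.22 (adjusted p = 0.00594). The immunoproteasome subunit PSMB10 fell (log2 fold change -0.25, SE 0.059, adjusted p = 0.00729). The other called genes were 3 that rose and 1 that fell.

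Interferon gamma is the classical inducer of CIITA outside B cells. Of 16 response genes listed, 11 were tested, and 4 rose, 1 fell and 6 were not called, with a median of 0.03. Over all genes tested 10.1% rose and 10.6% fell. GBP4, a guanylate-binding protein, rose from 63.3 ± 2.51 to 99.3 ± 6.69 CPM (log2 fold change 0.65, SE 0.059, adjusted p = 2.39e-06), and GBP2 rose at a lower level (log2 fold change 0.49, SE 0.12, adjusted p = 0.0096). The kinase JAK2 rose (log2 fold change 0.33, SE 0.087, adjusted p = 0.0132) and the adhesion molecule ICAM1 fell (log2 fold change -0.49, SE 0.088, adjusted p = 0.000996). GBP1 and IRF1 were among those not called, at -0.01 and 0.03, and CXCL9, CXCL10, CXCL11 and IDO1 did not pass the filter on low counts. Of the 7 mature B cell markers 4 were tested, and 1 rose and 3 were not called. The 1 that rose was CD72, a B cell surface receptor (log2 fold change 0.47, SE 0.10, adjusted p = 0.00364). Of the 10 B lineage markers 2 rose and 8 were not called. Those that rose were BLNK, the adaptor of B cell receptor signalling (log2 fold change 0.34, SE 0.052, adjusted p = 0.000294), and DNTT, the terminal transferase of precursor B cells (log2 fold change 0.26, SE 0.04, adjusted p = 0.000328). NKG7, a granule gene of T and NK cells and the only 1 of its list tested, fell (log2 fold change -0.30, SE 0.10, adjusted p = 0.043). It was called with neither guide alone.

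Across the 9 libraries the 10 genes varied together. The Pearson correlation of log2 CPM over the 45 pairs ran from 0.69 for HLA-DQA1 with CD74 to 0.99 for HLA-DRA with CIITA, with a median of 0.94. The libraries share 3 groups, so these values are not independent of the difference between KO and SCR1 and carry no test. Outside the set, the genes whose levels followed the mean profile of the 10 most closely were LINC01139 (r = 0.994), LINC02984 (r = 0.990), NRN1 (r = 0.988), ACAD11 (r = 0.985) and HLA-DQA2 (r = 0.985), over 9 libraries. LINC01139 rose from 14.97 ± 1.06 to 27.8 ± 2.87 CPM and LINC02984 from 6.48 ± 0.628 to 16.3 ± 1.34 CPM, and both are long noncoding RNA genes. NRN1, which encodes the membrane-anchored protein neuritin, rose from 165 ± 1.46 to 265 ± 12.3 CPM.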

How the data were processed

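RNA-seq libraries of HAL-01 cells were quantified by the authors with STAR and Salmon 1.10.1 on GRCh38. Their deposited tables hold estimated counts and TPM per transcript of GENCODE 44. Whether the quantification used strand is not given in the sources used here. Transcript rows were summed per gene identifier and the counts rounded to whole numbers. Columns of samples were matched by title.

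Genes passing filterByExpr (minimum count 10) were fitted with edgeR 4.0.16 in R 4.3.3 (TMM scaling, quasi-likelihood test). All 9 libraries entered each fit, with the 6 KO libraries as 1 group against the 3 SCR1 libraries for the KO comparison and with the 3 groups kept apart for the comparisons of single guides. P-values had Benjamini-Hochberg adjustment over all 14436 genes and a threshold of 0.05. limma 3.58.1 on log2(TPM + 1) and DESeq2 1.42.0 were alternatives, alongside other scalings and filters, left-out libraries and a replicate block, and the test on coding transcripts was added after the data were seen. The test was checked on simulated counts in which 200 genes were changed 2-fold. It called 82.5% of these, with 9 false calls among 174. Smaller changes, such as those of the 10 genes, were not simulated. Libraries held 15212462 to 29777361 counts, and precision is given by the spread between libraries. Replicates of a group differed by more than sampling noise (chi-square per degree of freedom of 4.31 to 8.59).

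The members and gene lists were chosen with earlier results of these data known. Named were all 10 members, other tested class II genes, up to 4 called genes of each list by size of change, MEF2C and the 5 genes most correlated with the members (mean CPM of at least 1). Other genes given with values were singled out after their values were seen. Calls of listed genes are those of both guides together, and some of these genes were not called with each guide alone. A few genes of the lists are not reported here by name, and they remain in the list counts.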

Additional observations from a re-analysis of the deposited data

Results flagged for a closer look

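Of 12 values checked for a library far from the rest of its group, 1 stood apart, where 0.6 would by chance. MEF2C had 552.8 CPM in sgRNA_97 replicate 1, against 494.9 to 510.1 CPM in the other 5 KO libraries, a gap of 0.737 of the whole range beside a critical value of 0.625.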

How the results depend on the processing

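In the comparison of both guides with SCR1, all 10 class II genes were called higher in 19 of 20 alternatives, and the coding-transcript test called 9, without HLA-DMA (log2 fold change 0.16, adjusted p = 0.207 by edgeR). For the single guides, limma on log2(TPM + 1) without a filter called 2 genes with sgRNA_96 and 7 with sgRNA_97. Of all 27291 genes tested, that setting called 128 and 172 higher. HLA-DMA lost its call for both guides in limma on filtered TPM (adjusted p = 0.0550 and 0.0551), with a gene length offset (0.0623 and 0.0637) and on coding transcripts (0.319 and 0.359). The cause was not tested. Leaving out 1 library at a time gave 10 genes called for both guides together, 9 to 10 for sgRNA_96, 9 to 10 for sgRNA_97 and 0 between the guides. Against SCR1 no alternative turned the direction of any of the 10 genes, while between the guides, where none was called, the sign turned in some alternatives for HLA-DPA1 (range -0.05 to 0.04), HLA-DPB1 (-0.02 to 0.14), HLA-DQB1 (-0.06 to 0.12), HLA-DMA (-0.07 to 0.06), HLA-DMB (-0.03 to 0.15) and CD74 (-0.12 to 0.02).

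Over all genes, 2984 were called for both guides together, 1615 for sgRNA_96, 2181 for sgRNA_97 and 3 between the guides. The counts were, in that order, 1195, 440, 679 and 0 in limma on log2(TPM + 1) with a filter, 1222, 451, 696 and 0 with a pseudocount of 0.1, 648, 201, 311 and 1 without a filter, 1524, 663, 924 and 1 with a gene length offset, and 1724, 813, 1130 and 0 on coding transcripts. Between the guides DESeq2 called 8 and edgeR without a filter 106. Leaving out 1 library gave 1503 to 3547, 760 to 2027, 987 to 2501 and 1 to 5, with the lowest counts for both guides together and for sgRNA_97 without SCR1 replicate 1 and for sgRNA_96 without sgRNA_96 replicate 3.

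Same-numbered libraries did not deviate together (correlations from -0.084 to 0.065), so the numbers were not taken to pair them. With the replicate block, 10, 10, 10 and 0 class II genes and 2936, 1576, 2082 and 1 of all genes were called.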
